A study of Mus musculus with 16 samples.

Results

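The histone genes of the replication clusters encode the bulk of the protein that packs newly copied DNA. They were followed in RNA of mouse macrophages that were engulfing dying cells. Genes were selected on their symbol, which had to name a histone gene of the Hist1, Hist2, Hist3 or Hist4 cluster and no pseudogene, and on a summed count of 10 or more over all 16 libraries. Of 55416 genes in the table, 69 symbols matched and 60 passed the count limit. The 60 genes comprised 6 of the linker class H1, 15 of H2A, 15 of H2B, 11 of H3 and 13 of H4. The Hist1 cluster on chromosome 13 held 49 of them, Hist2 on chromosome 3 held 8, Hist3 on chromosome 11 held 2 and Hist4 on chromosome 6 held 1. Just inside the limit lay Hist1h2al with 19 counts, Hist3h2ba with 22 and Hist1h2ah with 23. Just outside lay Hist1h2ao and Hist1h2aj with 2 counts each and Hist1h2bq and Hist1h2ba with 1 each, and Hist1h2aa, Hist2h2aa1, Hist1h2br, Hist1h2ap and Hist2h3c1 had 0. The annotation types 59 of the 60 as protein coding and Hist1h2al as a processed pseudogene.

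The macrophages came from the Hoxb8 line, bone marrow progenitors whose division is maintained by the transcription factor Hoxb8 and which mature into macrophages once it is withdrawn. There were 4 groups of 4 libraries: macrophages alone, and macrophages that had been with apoptotic cells for 45, 90 or 180 min. The apoptotic cells were Jurkat, a line from a human T cell leukaemia. All groups share the Hoxb8 background, and the labels name no other genotype, no age of the donor mice and no time at which the macrophages alone were harvested. Ribosomal RNA was removed from total RNA before a strand-marking kit was used, so RNA without a poly(A) tail was not removed by design. Whether the 4 libraries of a group stem from separate cultures is not in the labels, and the p-values then cover only the spread among these libraries, which may be technical.

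Histone messages of the replication clusters are built unlike other messages. They carry almost no introns and end in a short hairpin, the stem-loop, in place of a poly(A) tail. The stem-loop binding protein Slbp holds that hairpin while the U7 small nuclear ribonucleoprotein directs the cut just behind it, and the messages are made in quantity while DNA is copied and destroyed when copying stops. Cells that have left the cycle can still make part of these RNAs, some of them extended past the stem-loop and polyadenylated. The linker histone H1 seals DNA at the nucleosome, H2A pairs with H2B, and H3 pairs with H4 to form the core.

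The stem-loop was searched for in RNA models of GENCODE M21, because its place bears on whether reads can come from beyond the normal message end. The annotation release used for counting is not given in the sources used here and may hold other models. A 6-base stem starting GG and a 4-base loop starting TT within 100 bases after the stop codon was found in 40 of the 60 genes, against 0.240% of 22527 coding genes of the GENCODE M21 annotation. That share includes the cluster genes, and of the 54 coding genes with such a stem-loop 10 are not histone symbols of the clusters. In the 40 genes the stem-loop began 21 to 58 bases after the stop (median 31 bases). The stem-loop took 6 forms, and the commonest stood in 22 genes. The stem-loop is shown in capitals, with 5 flanking bases on each side, for genes that differ in their course during engulfment:
Hist1h1d: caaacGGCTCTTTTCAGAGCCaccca
Hist3h2a: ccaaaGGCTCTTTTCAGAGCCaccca
Hist1h1c: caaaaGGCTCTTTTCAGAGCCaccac
Hist1h1e: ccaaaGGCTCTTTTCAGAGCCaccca
Hist1h4i: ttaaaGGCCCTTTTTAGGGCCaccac
Hist2h4: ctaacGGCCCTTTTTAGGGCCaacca
Hist1h4d: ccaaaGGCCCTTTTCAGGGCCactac
Hist1h3e: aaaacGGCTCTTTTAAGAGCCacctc
Hist3h2a, which was highest at 90 min, and Hist1h1e, which was lowest at 180 min, held the same 26 bases. Hist1h4i and Hist2h4, an H4 gene higher at 90 min and one lower at 180 min, shared a 16-base form that was found in no other gene of the 60. No such hairpin was found in the models of Hist1h2bc, Hist2h2be and Hist2h3b. This says only that these letters were not in the window searched.

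Promoters from 250 bases before to 50 after the start were found in RefSeq (build GRCm38.p6) for 54 of the 60 genes. Those not matched were Hist1h2bc, Hist2h4, Hist2h2be, Hist1h3f, Hist1h3a and Hist1h2al. Searched on both strands, TATAAA stood in 59.3% of the 54 promoters against 14.2% of 27025 RefSeq promoters of the same length, CCAAT in 83.3% against 37.9%, and the octamer ATTTGCAT in 20.4% against 1.75%. CCAAT was present in each matched H1, H2A, H2B and H3 promoter but in 3 of 12 H4 promoters. The octamer was confined to 6 of 14 H2A and 5 of 13 H2B promoters. Windows of some neighbouring H2A and H2B genes overlap, as those of Hist1h2bg and Hist1h2ae do. The same letters are then counted for both genes, so the windows are not independent. Below are a linker gene and an H2B gene that were higher at 90 min and an H4 gene that was lower at 180 min, with these 3 motifs in capitals on either strand; each lies on the plus strand, at chr13:23554782-23555081 for Hist1h1d, chr13:23571150-23571449 for Hist1h2bg and chr13:23581318-23581617 for Hist1h4d.
Hist1h1d: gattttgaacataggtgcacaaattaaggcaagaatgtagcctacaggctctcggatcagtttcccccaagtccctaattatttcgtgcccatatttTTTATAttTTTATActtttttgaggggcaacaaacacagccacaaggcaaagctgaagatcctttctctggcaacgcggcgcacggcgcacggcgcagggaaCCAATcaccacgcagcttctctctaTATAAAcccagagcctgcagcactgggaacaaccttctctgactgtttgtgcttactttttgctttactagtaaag
Hist1h2bg: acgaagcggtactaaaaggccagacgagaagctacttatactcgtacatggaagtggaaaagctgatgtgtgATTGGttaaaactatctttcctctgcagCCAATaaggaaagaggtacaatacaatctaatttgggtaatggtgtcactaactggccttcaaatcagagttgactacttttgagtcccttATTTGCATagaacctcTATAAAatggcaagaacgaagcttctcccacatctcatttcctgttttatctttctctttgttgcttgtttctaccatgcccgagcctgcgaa
Hist1h4d: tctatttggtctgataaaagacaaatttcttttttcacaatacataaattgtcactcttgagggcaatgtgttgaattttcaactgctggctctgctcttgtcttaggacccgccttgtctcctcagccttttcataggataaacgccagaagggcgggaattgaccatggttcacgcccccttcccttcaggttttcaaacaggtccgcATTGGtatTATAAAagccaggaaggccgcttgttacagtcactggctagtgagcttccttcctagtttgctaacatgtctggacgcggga
Each of the 3 windows holds the TATA and CCAAT letters on one strand or the other, and that of Hist1h2bg also holds the octamer.

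Total counts were between 10.7 M and 41.7 M per library and were lowest on average at 90 min (15.7 M), against 24.7 M in macrophages alone. The 60 genes held 0.0309 ± 0.00164% of counts in macrophages alone, 0.0297 ± 0.000964% at 45 min, 0.0333 ± 0.00240% at 90 min and 0.0295 ± 0.00165% at 180 min (SD, n = 4 each). The labelled cell type was checked with 12 macrophage markers, all of which were detected. Their summed level lay between 10250.3 and 13127 scaled CPM, the count of a gene per unit of library size after scaling. The mouse T cell markers summed to 9.78 to 14.8 CPM, and 6 of their 14, among them Cd3e, Cd3g and Trbc1, had no count. Neutrophil markers summed to 5.01 to 7.83 CPM and progenitor markers to 0.235 to 2.39 CPM. Reads of human histone RNA that resemble mouse sequence could be among the counts, and their part was not tested. In these bulk samples fewer cells with a message and less of it per cell cannot be told apart.

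The histone RNA was unevenly spread over the 60 genes. Hist1h1c, a linker histone, had a mean level of 80.1 CPM over the 16 libraries and took 26.0% of the summed level. Hist1h2bc, an H2B gene, followed with 35.7 CPM, then Hist1h4d with 17.6 CPM and Hist1h1e with 17.5 CPM, and the 8 highest took 62.7% together. Per kilobase of GENCODE M21 model, Hist1h1c (51.3 CPM per kb) and Hist1h2bc (30.8 CPM per kb) still led, followed by Hist1h4d (15.5 CPM per kb). Hist1h1d fell back to 0.860 CPM per kb because its model is 7425 bases long. Of the 60 genes, 29 share most of their 50-base stretches, read on either strand, with another gene and 4 share none. The other gene can be a similar histone gene or one annotated over the same place. Hist2h2bb shares 100% of its stretches, with 0 cluster genes and 2 genes elsewhere. Of the 60, 18 overlap a gene on the opposite strand and 5 overlap one on the same strand, and the strand setting of the counting is not given in the sources used here. The expression filter passed 51 genes for testing. The 9 others were Hist1h2ag, Hist2h2ab, Hist1h3g, Hist1h2an, Hist1h1t, Hist1h2bp, Hist1h2ah, Hist3h2ba and Hist1h2al, which had at most 15 counts in any library and 0.468% of the summed level. The summed level of all 60 was 309.6 ± 15.7 CPM in macrophages alone, 299 ± 11.1 CPM at 45 min, 334 ± 20.6 CPM at 90 min and 290.3 ± 15.9 CPM at 180 min (SD, n = 4 each). The 90 min mean was the highest, and the 90 min libraries overlapped with those alone.

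Single genes were called in both directions. Calls rest on edgeR's quasi-likelihood test with Benjamini-Hochberg adjustment over 14168 genes and a limit of 0.05. At 45 min against alone, 0 genes were higher (4.68% of all genes tested were) and 1 was lower (6.11% of all genes). DESeq2 also called 0 higher and 1 lower, and at an unadjusted p under 0.05 edgeR counted 0 higher and 5 lower. At 90 min against alone, 7 genes were higher (11.1% of all genes) and 3 were lower (9.97%). At 180 min against alone, 1 was higher (15.1%) and 8 were lower (16%). These 3 comparisons share the same 4 control libraries. The called share of the 51 was 1.96% at 45 min, 19.6% at 90 min and 17.6% at 180 min, beside 10.8%, 21.1% and 31.1% of all genes tested. In none of these comparisons did the histone genes exceed the share of all genes.

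Between times, 9 genes were higher (14.8% of all genes) and 0 lower (13.3%) at 90 min than at 45 min, where DESeq2 likewise called 9 higher and 0 lower and edgeR counted 2 lower at an unadjusted p under 0.05. The comparison of 180 min with 45 min gave 4 higher (18.3%) and 6 lower (18%). At 180 min against 90 min, 1 was higher (4.45%) and 10 were lower (6.97%). The median log2 fold change of the 51 was −0.10 at 45 min, 0.13 at 90 min and −0.13 at 180 min against alone, beside 0.00, 0.00 and 0.01 over all genes tested. It was −0.32 at 180 min against 90 min, beside 0.00 over all genes, and in that comparison 21.6% of the 51 were called, beside 11.4% of all genes. A change at any time was called for 18 of the 51, against 44.6% of all genes. These medians depended on single libraries: leaving each out gave −0.13 to −0.022 at 45 min (the value nearest 0 without library 2 of 45 min), 0.042 (without library 1 of 90 min) to 0.16 at 90 min, and −0.20 to −0.029 (without library 1 of the macrophages alone) at 180 min, all against alone. The 45 min median also moved by over 1.5 times without library 1 of the macrophages alone, and the 180 min median without library 3 of the macrophages alone, 1, 2 or 4 of 45 min, or 1, 3 or 4 of 180 min, within these ranges. With the length and GC trend removed, the 90 min median was 0.039. Over the 6 comparisons, 19 genes were called at least once and 32 in none, and the same count was not made over all genes.

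**Figure D1:**
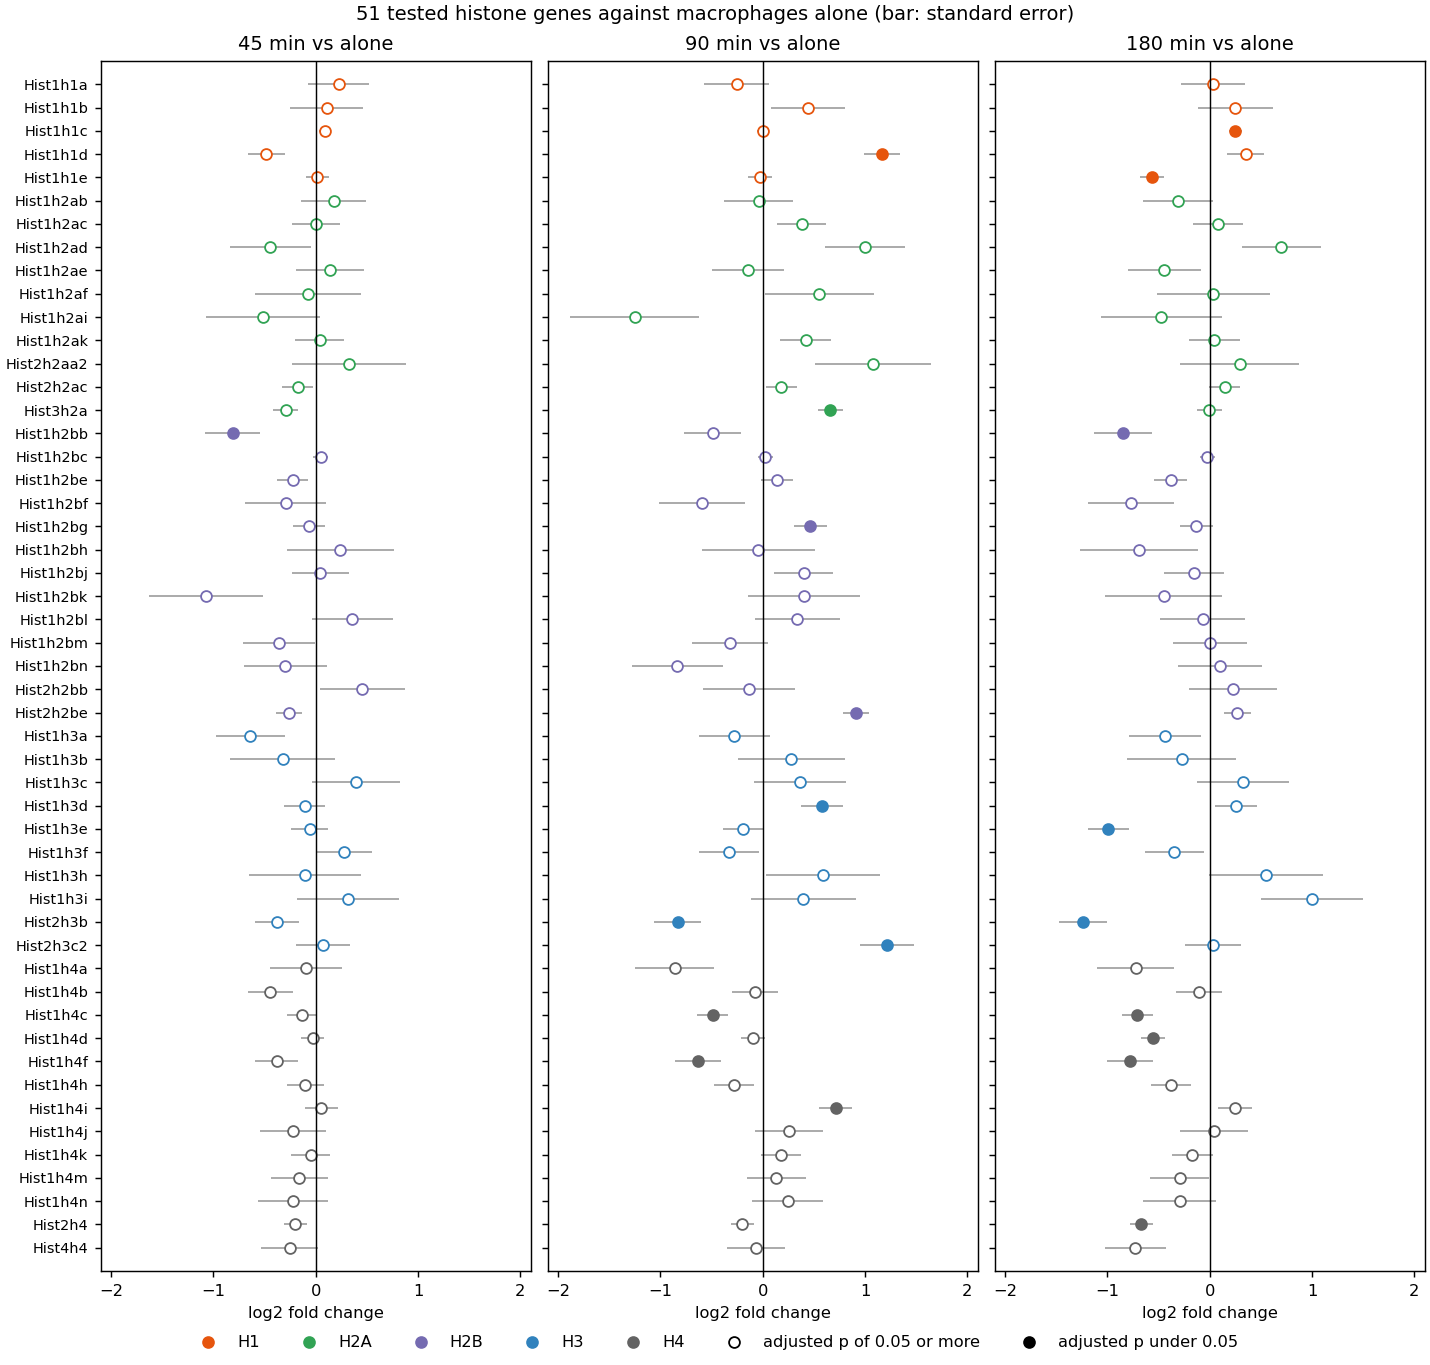
Log2 fold change of the 51 tested histone genes at 45, 90 and 180 min against macrophages alone, grouped by class, with the standard error as a bar and called genes filled. A single gene is filled at 45 min (Hist1h2bb), 10 are filled at 90 min on both sides of 0, and 9 at 180 min, with Hist1h1c alone on the higher side.

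Summed by class, H2A and H2B were highest at 90 min and H3 and H4 were lowest at 180 min. H2A genes together had 29.6 ± 1.18 CPM in macrophages alone, 27.1 ± 0.450 CPM at 45 min, 40.4 ± 5.64 CPM at 90 min and 30.8 ± 1.32 CPM at 180 min (SD, n = 4 each). The lowest H2A library at 90 min, 36.1 CPM, lay above the highest of the other groups, 32.0 CPM. H4 genes together had 80.3 ± 3.27, 73.1 ± 5.20, 76.0 ± 8.39 and 58.8 ± 7.31 CPM in the same order of groups. The highest H4 library at 180 min, 66.8 CPM, lay below the lowest alone, 77.4 CPM. H3 genes had 25.6 ± 1.77, 24.0 ± 1.70, 27.6 ± 3.13 and 20.2 ± 1.25 CPM, and all 180 min libraries lay below all others. H2B genes had 71.6 ± 1.48, 68.3 ± 3.91, 81.5 ± 2.93 and 68.0 ± 2.01 CPM, highest at 90 min without overlap. H1 genes had 102 ± 9.21, 107 ± 5.70, 109 ± 3.42 and 113 ± 10.7 CPM, with overlap between groups. That order rests on Hist1h1c: without it the H1 sum was 27.4 CPM alone, 26.6 CPM at 45 min, 33.2 CPM at 90 min and 22.9 CPM at 180 min, where the 180 min mean is the lowest in place of the highest. Single genes also carry part of the gaps in H2A, H2B and H3. Hist2h2be had a mean of 15.3 CPM at 90 min, against 8.13 CPM alone, and without it the H2B libraries of these groups overlap. Without Hist3h2a the H2A mean stayed highest at 90 min (23.6 CPM, beside 20.3 CPM at 180 min), but libraries of these times overlap. Without Hist1h3e the H3 mean stayed lowest at 180 min (16.4 CPM, beside 17.1 CPM at 45 min), again with overlap. No p is given for these sums.

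**Figure D2:**
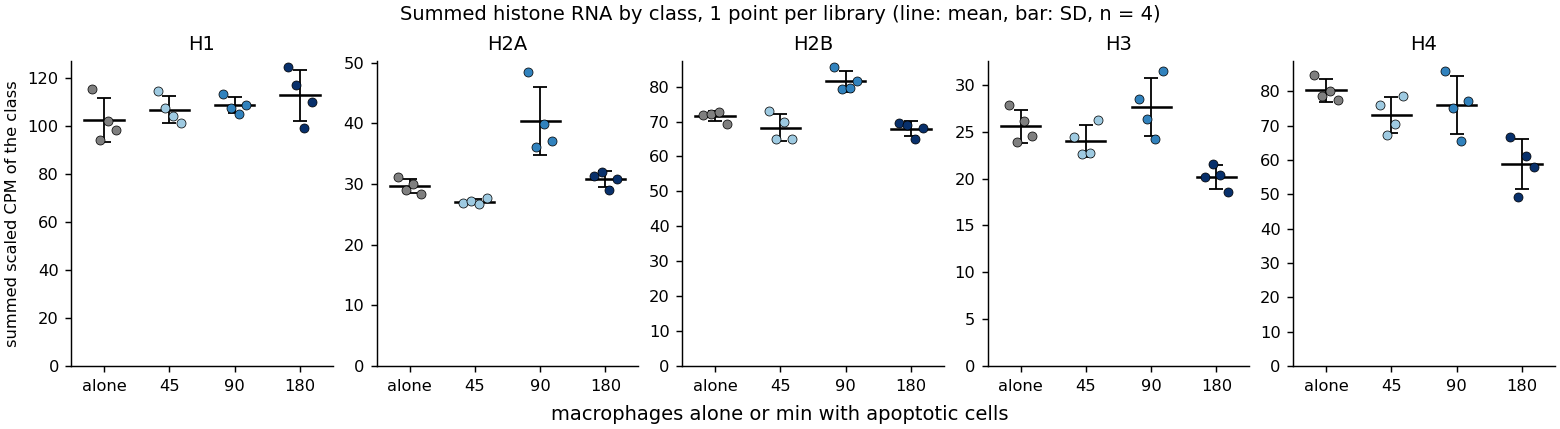
Summed scaled CPM of the H1, H2A, H2B, H3 and H4 genes in each library of macrophages alone and at 45, 90 and 180 min, with the group mean as a line and the SD as a bar. H2A and H2B stand highest at 90 min (means of 40.4 and 81.5 CPM), and H3 and H4 stand lowest at 180 min (means of 20.2 and 58.8 CPM).

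Among the linker genes, Hist1h1d, Hist1h1c and Hist1h1e took 3 different courses. Hist1h1d had 5.33, 4.23, 4.04 and 5.95 CPM in macrophages alone, 4.87, 3.20, 3.71 and 2.25 CPM at 45 min, 11.7, 10.8, 10.46 and 10.7 CPM at 90 min, and 6.13, 6.79, 5.82 and 6.19 CPM at 180 min. The 90 min libraries stood apart from all others. Its log2 fold change was 1.16 ± 0.17 (SE) at 90 min against alone (adjusted p = 4.3e-07, edgeR's quasi-likelihood test), 1.65 ± 0.18 at 90 min against 45 min (adjusted p = 5.3e-11) and −0.81 ± 0.18 at 180 min against 90 min (adjusted p = 0.000488). At 180 min it was also called higher than at 45 min (0.83 ± 0.18, adjusted p = 0.000167). Its 45 min value against alone, −0.48 ± 0.18, was not called (adjusted p = 0.0730).

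Hist1h1c, the most abundant of the 60, had 81.8, 71.6, 75.1 and 71.8 CPM alone, 84.1, 83.2, 76.9 and 76.2 CPM at 45 min, 83.3, 73.0, 70.3 and 74.9 CPM at 90 min, and 97.7, 95.6, 79.3 and 86.3 CPM at 180 min. The groups overlap, and the 2 highest libraries were both of 180 min. It was the only gene of the 60 called higher at 180 min against alone, with a small log2 fold change of 0.25 ± 0.06 (adjusted p = 0.00110, edgeR). The value at 180 min against 90 min was 0.25 ± 0.06 (adjusted p = 0.00432). The call at 180 min against 45 min (0.16 ± 0.06, adjusted p = 0.0387) was lost without library 2, 3 or 4 of the macrophages alone, 3 or 4 of 45 min, 2, 3 or 4 of 90 min, or 1 or 2 of 180 min (adjusted p of 0.0517 to 0.229).

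Hist1h1e, a further linker gene, had 24.6, 15.3, 19.4 and 16.8 CPM alone, 20.5, 17.99, 18.7 and 20.03 CPM at 45 min, 15.4, 20.8, 20.2 and 18.6 CPM at 90 min, and 15.9, 10.9, 11.2 and 13.7 CPM at 180 min. A single 180 min library reached into the range of the libraries alone and of 90 min, and none into that of 45 min. Its log2 fold change at 180 min was −0.56 ± 0.12 against alone (adjusted p = 0.000130, edgeR), −0.58 ± 0.12 against 45 min and −0.54 ± 0.12 against 90 min. Its model overlaps that of Hist1h2be on the same strand, so reads of the shared stretch are uncertain. Hist1h2be was also called lower at 180 min than at 90 min (−0.53 ± 0.16, adjusted p = 0.0232), a call lost without library 1 of 90 min (−0.44, adjusted p = 0.0986) or library 2 (−0.42, adjusted p = 0.111) or 3 of 180 min (−0.46, adjusted p = 0.0922). The other tested linker genes, Hist1h1a and Hist1h1b, were called in no comparison.

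Of 10 tested H2A genes, Hist3h2a and Hist1h2ad were called in some comparison, a count not made over all genes. A joint test over the 3 times against alone called 44.6% of all genes. Hist3h2a had 9.98, 10.4, 10.3 and 11.8 CPM alone, 8.60, 8.57, 7.62 and 9.63 CPM at 45 min, 19.8, 14.6, 15.6 and 17.2 CPM at 90 min, and 10.3, 10.1, 10.1 and 11.6 CPM at 180 min. Each 90 min library exceeded each library of the other groups. Its log2 fold change was 0.66 ± 0.12 at 90 min against alone (adjusted p = 1.95e-05, edgeR), 0.96 ± 0.12 against 45 min (adjusted p = 4.76e-09) and −0.67 ± 0.12 at 180 min against 90 min (adjusted p = 3.41e-05). The value at 180 min against alone was −0.01 ± 0.12 (adjusted p = 0.982).

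The model of Hist3h2a overlaps that of Trim17, a tripartite motif gene, on the same strand. Trim17 had a mean of 8.25 CPM at 90 min, against 2.61 CPM alone, a log2 fold change of 1.65 ± 0.21 (adjusted p = 1.32e-08, edgeR). At 180 min Trim17 was again called higher than alone (1.20 ± 0.22, adjusted p = 8.72e-06), whereas Hist3h2a was not. How far reads are shared between them was not tested.

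Hist1h2ad had low levels, 0.685, 0.861, 1.396 and 1.23 CPM alone, 0.981, 0.952, 0.453 and 0.653 CPM at 45 min, 2.19, 1.28, 2.69 and 2.20 CPM at 90 min, and 1.70, 2.20, 1.23 and 1.73 CPM at 180 min. Its 45 min libraries lay below those of both later times. Its log2 fold change was 1.44 ± 0.39 at 90 min against 45 min (adjusted p = 0.00347, edgeR) and 1.14 ± 0.39 at 180 min against 45 min (adjusted p = 0.0173). The second call was lost without library 3 of 45 min (0.97, adjusted p = 0.0648) or library 2 of 180 min (1.01, adjusted p = 0.0548). Of its 50-base stretches, 67.1% also stand in other genes, so its reads cannot be assigned with certainty.

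Of 13 tested H2B genes, Hist2h2be was called in 4 comparisons. It had 8.15, 9.003, 7.21 and 8.15 CPM alone, 6.51, 6.84, 6.55 and 7.14 CPM at 45 min, 16.4, 14.9, 12.9 and 17.1 CPM at 90 min, and 9.67, 10.6, 9.98 and 9.14 CPM at 180 min. The groups did not overlap, with 45 min lowest, then alone, 180 min and 90 min. The log2 fold change at 90 min was 0.91 ± 0.13 against alone (adjusted p = 5.97e-08, edgeR) and 1.18 ± 0.13 against 45 min (adjusted p = 4.88e-11). At 180 min it was 0.53 ± 0.13 against 45 min (adjusted p = 0.000660), −0.64 ± 0.13 against 90 min (adjusted p = 0.000127) and 0.27 ± 0.13 against alone, which was not called (adjusted p = 0.107). None of its 50-base stretches stands in another gene.

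Hist1h2bc, the most abundant H2B gene, was called in no comparison. It had 34.2, 35.2, 38.3 and 33.6 CPM alone, 37.5, 36.1, 38.4 and 34.3 CPM at 45 min, 34.4, 39.5, 35.6 and 34.3 CPM at 90 min, and 34.5, 36.6, 32.3 and 35.8 CPM at 180 min. All groups overlap. Its log2 fold changes against alone were 0.05 ± 0.07, 0.03 ± 0.08 and −0.02 ± 0.07 at 45, 90 and 180 min, and edgeR called none (lowest adjusted p over the 6 comparisons 0.473).

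Hist1h2bb, another H2B gene, was the single call at 45 min. It had 3.46, 2.78, 2.98 and 4.24 CPM alone, 1.44, 1.36, 2.39 and 2.42 CPM at 45 min, 2.26, 2.04, 2.83 and 2.44 CPM at 90 min, and 2.25, 0.918, 2.29 and 1.81 CPM at 180 min. All 45 min and 180 min libraries lay below all libraries alone. Log2 fold changes against alone were −0.81 ± 0.27 at 45 min (adjusted p = 0.0406, edgeR) and −0.84 ± 0.28 at 180 min (adjusted p = 0.0171). Without library 1, 2, 3 or 4 of the macrophages alone or library 1 or 2 of 45 min, the first call was lost (adjusted p of 0.0543 to 0.177), as it was with all libraries thinned to the depth of the smallest (adjusted p = 0.0998). The second was lost without library 4 of the macrophages alone (−0.72, adjusted p = 0.0749) or library 2 of 180 min (−0.67, adjusted p = 0.0737).

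Hist1h2bg and Hist1h2bk, also of H2B, were called at 90 min, and their calls depended on single libraries. Hist1h2bg had a mean of 9.09 ± 2.23 CPM at 90 min, against 6.54 ± 0.667 CPM alone (SD, n = 4 each), and its log2 fold change was 0.46 ± 0.16 (adjusted p = 0.0298, edgeR). Library 1 of 90 min, at 12.04 CPM, was its highest, and without it the values were 0.29 against alone (adjusted p = 0.243), 0.35 against 45 min (adjusted p = 0.111) and −0.43 at 180 min against 90 min (adjusted p = 0.112), none called. The call against alone was also lost without library 2, 3 or 4 of the macrophages alone (adjusted p of 0.0619 to 0.0808). Hist1h2bk, one of the least abundant genes tested, had 0.698 to 1.70 CPM at 90 min, against 0.206 to 0.532 CPM at 45 min (1.47 ± 0.57, adjusted p = 0.0452). That call was lost without any one library of 45 min, without library 1, 3 or 4 of 90 min, 1, 2 or 3 of the macrophages alone, or 3 or 4 of 180 min (adjusted p of 0.0502 to 0.187).

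Of 10 tested H3 genes, Hist2h3c2, Hist1h3d, Hist2h3b and Hist1h3e were called in some comparison, a count not made over all genes. A joint test over the 3 times against alone called 44.6% of all genes. Hist2h3c2 had 2.52, 1.76, 2.45 and 2.25 CPM alone, 2.19, 1.36, 2.76 and 3.10 CPM at 45 min, 5.91, 3.78, 3.32 and 7.83 CPM at 90 min, and 2.52, 2.48, 2.17 and 2.11 CPM at 180 min. The 90 min libraries were spread over more than the range of all others together and did not overlap with them. Its log2 fold change was 1.21 ± 0.26 at 90 min against alone (adjusted p = 0.000325, edgeR) and −1.18 ± 0.27 at 180 min against 90 min (adjusted p = 0.00100). Hist1h3d had 5.28 ± 0.573 CPM at 90 min, against 3.53 ± 0.292 CPM alone (SD, n = 4 each), a log2 fold change of 0.58 ± 0.20 (adjusted p = 0.0320). That call was lost without library 2, 3 or 4 of the macrophages alone or 3 or 4 of 90 min (adjusted p of 0.0595 to 0.0920) and without the expression filter (adjusted p = 0.0618).

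Hist2h3b moved the other way. It had 6.16, 3.60, 4.72 and 4.93 CPM alone, 4.22, 3.27, 3.71 and 3.75 CPM at 45 min, 1.97, 2.68, 2.33 and 3.83 CPM at 90 min, and 2.59, 1.56, 2.29 and 1.73 CPM at 180 min. At 180 min all libraries lay below all those alone and at 45 min. Against alone, the log2 fold change was −0.83 ± 0.23 at 90 min (adjusted p = 0.00567, edgeR) and −1.24 ± 0.24 at 180 min (adjusted p = 2.31e-05). All of its 50-base stretches, 100%, stand in other genes on either strand, as do 63.5% of those of Hist2h3c2. Each shares stretches with 11 cluster genes, so the division of reads between copies is uncertain for both. Hist2h3b also overlaps Gm20628 on the opposite strand, and the part of the 100% due to H3 copies was not separated.

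Hist1h3e, the H3 gene with the most counts, had 7.53, 7.91, 7.06 and 6.38 CPM alone, 5.63, 6.84, 7.003 and 8.25 CPM at 45 min, 8.76, 6.69, 6.29 and 3.77 CPM at 90 min, and 3.34, 5.69, 2.25 and 3.83 CPM at 180 min. The 180 min libraries lay below all those alone. The log2 fold change at 180 min was −0.99 ± 0.20 against alone (adjusted p = 6.55e-05, edgeR), −0.93 ± 0.20 against 45 min (adjusted p = 0.000135) and −0.80 ± 0.21 against 90 min (adjusted p = 0.00496). The last was lost without library 1 of 90 min (−0.61, adjusted p = 0.0618) or library 3 of 180 min (−0.58, adjusted p = 0.0709). Its shared stretches made up 73.4%.

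The H4 genes made up 4 of the 8 genes called lower at 180 min against alone. They were 30.8% of the 13 tested H4 genes, beside 16% of all genes called lower. As 0 H4 genes were called higher (15.1% of all genes), 30.8% was also the share called in either direction. That share was 31.1% over all genes tested. The 13 tested had a median log2 fold change of −0.38 in that comparison, beside 0.01 over all genes. Hist2h4 had 16.7, 16.01, 15.4 and 13.99 CPM alone, 14.5, 12.6, 13.9 and 13.3 CPM at 45 min, 14.9, 13.7, 11.2 and 14.5 CPM at 90 min, and 9.81, 8.08, 10.6 and 10.3 CPM at 180 min. Each 180 min library lay below each library of the other groups. At 180 min it gave log2 fold changes of −0.67 ± 0.12 against alone (adjusted p = 3.91e-06, edgeR), −0.47 ± 0.12 against 45 min (adjusted p = 0.000804) and −0.47 ± 0.12 against 90 min (adjusted p = 0.00383). With 1.01% of its stretches shared, it is the H4 gene named here whose reads are best separated.

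Hist1h4d, the H4 gene with the most counts, had 21.5, 18.7, 20.8 and 17.6 CPM alone, 22.4, 17.4, 14.95 and 22.0 CPM at 45 min, 17.2, 17.9, 18.4 and 20.01 CPM at 90 min, and 15.5, 11.1, 16.4 and 10.4 CPM at 180 min. The 180 min libraries lay below those alone and at 90 min. At 180 min, log2 fold changes were −0.56 ± 0.12 against alone (adjusted p = 0.000176, edgeR), −0.53 ± 0.12 against 45 min (adjusted p = 0.000289) and −0.46 ± 0.12 against 90 min (adjusted p = 0.00706). The last was lost without library 4 of 180 min (−0.33, adjusted p = 0.0986).

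Hist1h4c had 8.83, 8.69, 10.2 and 9.97 CPM alone, 6.71, 9.05, 10.2 and 8.42 CPM at 45 min, 6.71, 8.49, 6.22 and 5.34 CPM at 90 min, and 6.33, 5.51, 6.41 and 4.80 CPM at 180 min. Both later groups lay below the libraries alone. The log2 fold change against alone was −0.49 ± 0.15 at 90 min (adjusted p = 0.0156, edgeR) and −0.71 ± 0.15 at 180 min (adjusted p = 0.000200). The 90 min call was lost without library 3 of the macrophages alone (−0.45, adjusted p = 0.0554) or library 4 of 90 min (−0.39, adjusted p = 0.0867). Hist1h4f had 2.77 ± 0.857 CPM at 180 min, against 4.83 ± 0.939 CPM alone (SD, n = 4 each), a log2 fold change of −0.78 ± 0.23 (adjusted p = 0.00518). Its 90 min call (−0.63 ± 0.23, adjusted p = 0.0379) was lost without library 1 of the macrophages alone or library 2, 3 or 4 of 90 min (adjusted p of 0.0509 to 0.167).

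Hist1h4i was the H4 gene that was higher. It had 5.77, 6.97, 5.02 and 5.41 CPM alone, 5.79, 6.23, 4.82 and 7.09 CPM at 45 min, 12.5, 9.83, 6.64 and 9.11 CPM at 90 min, and 8.04, 6.98, 6.88 and 5.85 CPM at 180 min. The lowest 90 min library lay within the range of each other group. Its log2 fold change was 0.71 ± 0.16 at 90 min against alone (adjusted p = 0.000806, edgeR) and 0.66 ± 0.16 against 45 min (adjusted p = 0.00125). Hist4h4, the gene of the Hist4 cluster, had −0.73 ± 0.30 at 180 min against alone and was not called (adjusted p = 0.0550).

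**Figure D3:**
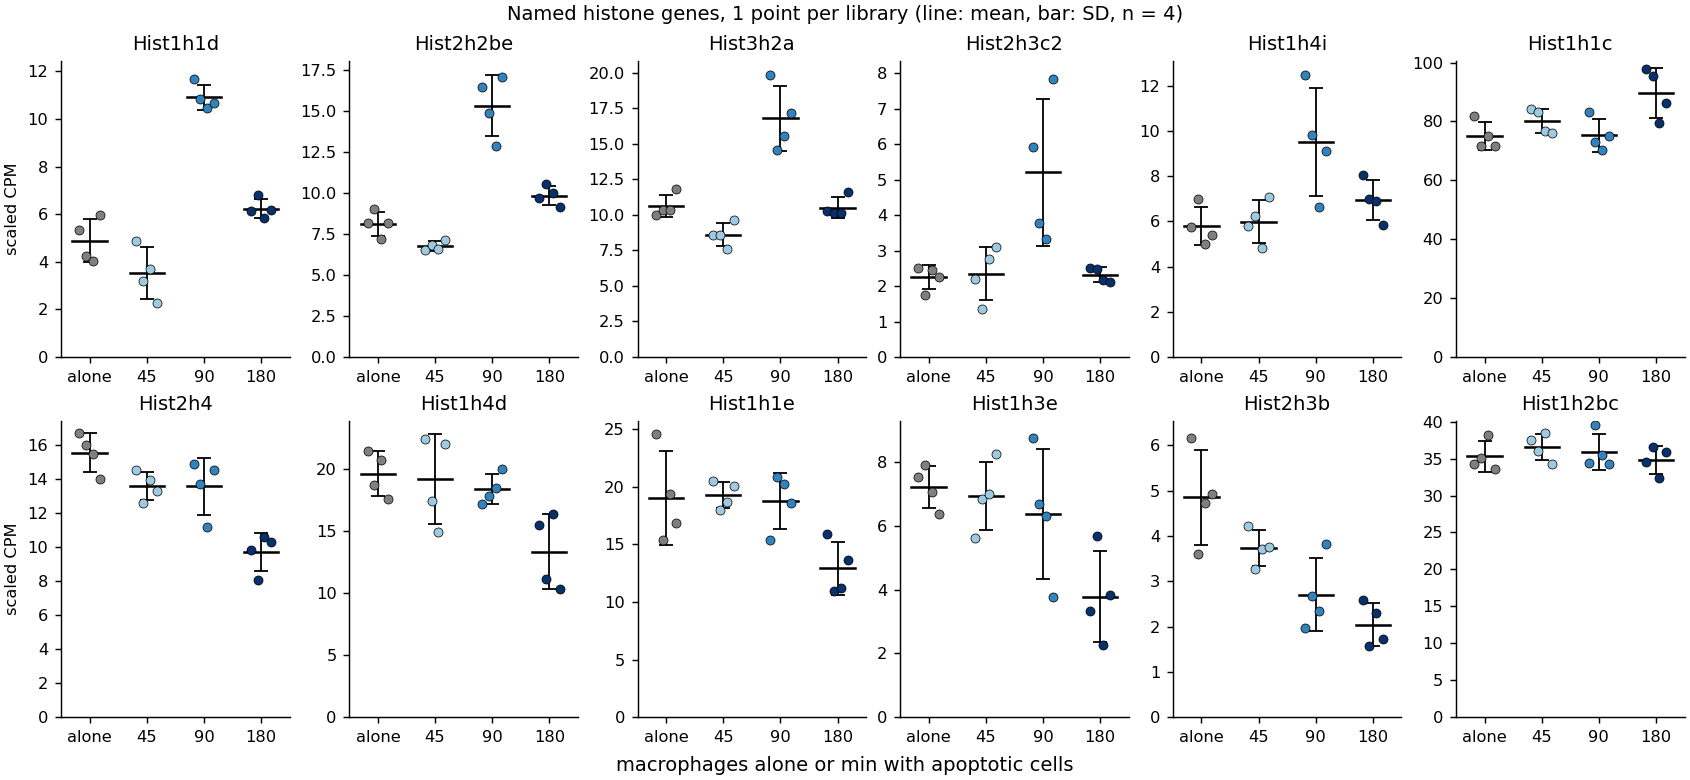
Scaled CPM of 12 named histone genes in each library of macrophages alone and at 45, 90 and 180 min, with the group mean as a line and the SD as a bar. Hist1h1d, Hist2h2be, Hist3h2a and Hist2h3c2 stand highest at 90 min, Hist2h4, Hist1h4d, Hist1h1e, Hist1h3e and Hist2h3b stand lowest at 180 min, and the group means of Hist1h2bc lie between 34.8 and 36.6 CPM.

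Along the chromosome, genes with opposite courses lie side by side. In the order of the Hist1 cluster, Hist1h4f (25th of 49), lower at 90 and 180 min, is followed by Hist1h1d, higher at 90 min, and then by Hist1h3e, lower at 180 min. Hist1h1d, Hist1h2bg and Hist1h3d, the genes called higher at 90 min between Hist1h4f and Hist1h4d (33rd), lie on the plus strand. Hist1h4f and Hist1h3e lie on the minus strand. Hist1h4d, also on the plus strand, was called lower at 180 min. Outside that stretch, Hist1h4i, called higher at 90 min, lies on the minus strand. Of the genes called lower at 180 min there, Hist1h2bb lies on the plus strand and Hist1h1e and Hist1h4c on the minus strand. As given above, the 90 min calls of Hist1h4f, Hist1h2bg and Hist1h3d and the 180 min call of Hist1h2bb depended on single libraries. In the Hist2 cluster Hist2h2be and Hist2h3c2, adjacent in the order of the 60 and both higher at 90 min, lie on opposite strands.

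**Figure D4:**
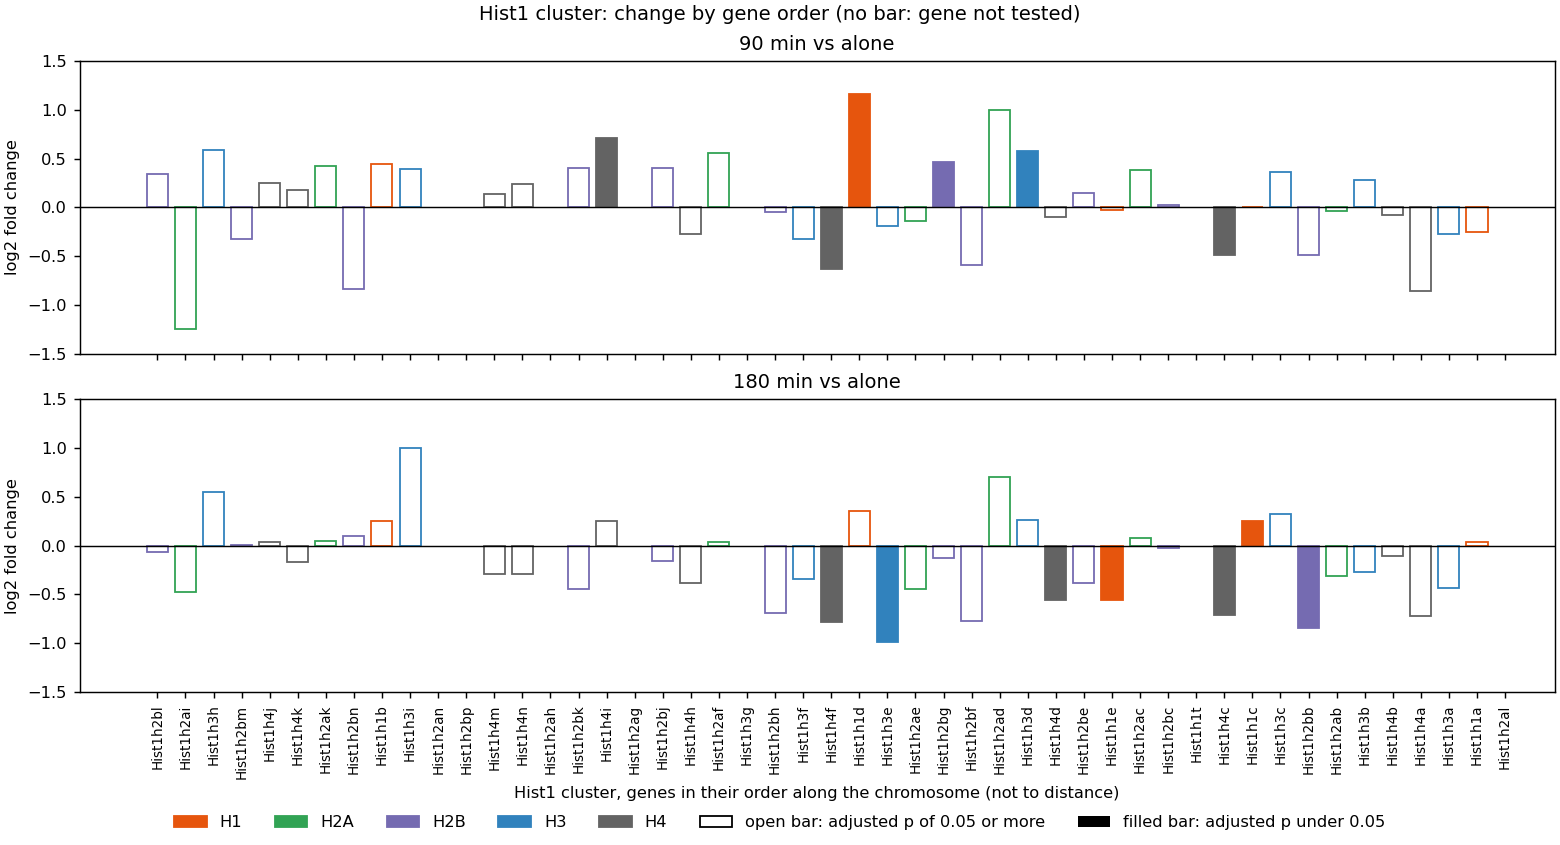
Log2 fold change at 90 and 180 min against macrophages alone for the genes of the Hist1 cluster in chromosomal order, with called genes filled. Of the genes called at 90 min, Hist1h4f (−0.63) and Hist1h1d (1.16) are neighbours with opposite signs, and the call of Hist1h4f depended on single libraries.

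The GENCODE M21 models, which need not be those used for counting, differ in how far they run past the stem-loop. For Hist1h1d the model continues 4884 bases beyond it, for Hist3h2a 1643, for Hist1h3d 752, for Hist2h3c2 377, for Hist1h4i 330 and for Hist1h2bg 155. Of the tested genes with a stem-loop, 19 of 36 have a model that runs over 100 bases past it, a limit chosen after these values were seen, so the counts that follow are a description only. Such models are found for 6 of 6 with a stem-loop among the genes called higher at 90 min against alone, and for 1 of 2 among those called lower. Among the genes called lower at 180 min against alone, 5 of 7 with a stem-loop have such a model, among them Hist2h4 (1257 bases) and Hist1h1e (1153 bases), and 2 do not (Hist1h4f with 33 and Hist1h2bb with 23 bases). Among the genes called in no comparison, 6 of 19 have one. The genes differ in counts as well, with a median of 152 counts per library for the genes higher at 90 min, 158 for those lower at 180 min and 37.3 for those never called. Where along the model the reads lay was not analysed here.

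Genes that process, carry and replace these histones were measured in the same libraries. Of 19 genes for histone RNA processing, 2 were called higher and 4 lower at 90 min against alone, and 2 higher and 6 lower at 180 min. Over all genes tested, 11.1% were higher and 9.97% lower at 90 min, and 15.1% were higher and 16% lower at 180 min. The median log2 fold change of the 19 was −0.06 at 90 min and −0.04 at 180 min, beside 0.00 and 0.01 over all genes. Srrt, which links the cap of an RNA to its processing, had a mean of 86.2 CPM at 90 min, against 66.8 CPM alone (log2 fold change 0.37 ± 0.06). Sympk, the scaffold of the histone cleavage complex, had 180.0 CPM at 180 min, against 219 CPM alone (−0.28 ± 0.05). Of 12 histone chaperones, 1 was called higher and 3 lower at 180 min against alone (15.1% and 16% of all genes), with a median of 0.03 beside 0.01. Daxx, which deposits the variant H3.3, had 85.4 CPM at 180 min, against 144 CPM alone (−0.76 ± 0.05), and Nasp, a chaperone of H1 and H3-H4, had 27.2 CPM at 180 min, against 34.3 CPM alone (−0.32 ± 0.09).

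Of 10 tested genes listed as replication-independent histones, 3 were called higher and 0 lower at 45 min against alone (4.68% and 6.11% of all genes). At 90 min against alone, 1 was higher and 0 lower (11.1% and 9.97%). At 180 min against alone, 2 were higher and 1 lower (15.1% and 16%). In either direction, edgeR counted 3 of the 10 at 45 min and 4 at 90 min at an unadjusted p under 0.05, and DESeq2 called 3 and 1. Their median log2 fold change was 0.12, −0.07 and −0.05 at the 3 times, beside 0.00, 0.00 and 0.01 over all genes. Cenpa, the centromeric H3, had 4.67 CPM at 180 min, against 2.20 CPM alone (1.08 ± 0.26), and H2afz, an H2A variant, had 30.8 CPM at 180 min, against 35.6 CPM alone (−0.21 ± 0.08). H3f3b, which encodes H3.3, had 534 CPM at 45 min, against 471 CPM alone (0.18 ± 0.04). The summed level of the replication-independent genes lay between 716 and 873 CPM, above that of all 60 cluster genes in each library.

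Of 37 genes of DNA replication and S phase, 2 were called higher and 2 lower at 90 min, and 4 higher and 2 lower at 180 min, each against alone. All calls together made up 21.1% of all genes tested at 90 min and 31.1% at 180 min, so the counts of 4 and 6 among 37 lie below those shares. Cdt1, a licensing factor, had 105 CPM at 180 min, against 66.0 CPM alone (0.67 ± 0.06), and Mcm6, a subunit of the replicative helicase, had 65.0 CPM at 180 min, against 80.1 CPM alone (−0.30 ± 0.06). Of 20 mitosis genes, edgeR called 0 at any time against alone, with 3, 3 and 0 at an unadjusted p under 0.05 at 45, 90 and 180 min, and DESeq2 called 0, 1 and 0. At 180 min against 90 min, 2 of the 20 mitosis genes and 2 of the 37 S phase genes were called higher and 0 lower. Over all genes, 4.45% were higher and 6.97% lower. The mitosis genes were Mki67, a proliferation marker (16.96 CPM at 180 min, against 11.9 CPM at 90 min, 0.49 ± 0.13), and Aurka (0.62 ± 0.22). The S phase genes were Mcm2 (0.37 ± 0.10) and Uhrf1 (0.46 ± 0.15). In that comparison 10 cluster genes were lower. The values in parentheses are log2 fold changes with their standard error, called at an adjusted p under 0.05 by edgeR.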

How the data were processed

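Total RNA was measured in 16 libraries of 4 groups. The deposited file is a table of unnormalized counts per Ensembl gene. The build was mm39, and HTSeq, SAMtools and STAR 2.7.9a were used, per the submitters' processing notes. Annotation release, strand setting and treatment of multi-mapping or human reads: not given in the sources used here. Column names give the group but no replicate number, so libraries are numbered 1 to 4 in file order.

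Symbols, models and gene order came from GENCODE M21 (GRCm38), so only promoter coordinates, from RefSeq GRCm38.p6, are printed. Symbols were found for 52083 of 55416 IDs. Replicate pairs differed by more than sampling noise (chi-square per degree of freedom of 3.98 to 10.2 over 24 pairs).

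Genes passed edgeR's filter (minimum count 10, minimum total 15), which left 14168. Scaling used the trimmed mean of M values. All 16 libraries shared 1 fit with group as the only term (edgeR 4.0.16, R 4.3.3, quasi-likelihood F test, Benjamini-Hochberg adjustment over all genes). Standard errors are coefficients over the square root of F. The fit was tested on simulated data.

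Per-library values are given for the 8 genes with the highest mean level, for up to 6 called genes with the smallest p in each comparison and for the gene with the most counts of each class. Other called genes are given by mean or range. Up to 4 genes of each other list and comparison could be named. The members and the lists were chosen with earlier results of these data known. Alternatives were other scalings, no filter (a total of at least 10), DESeq2 1.42.0, thinning to the smallest library, removal of the length and GC trend, coding genes only, only the groups compared, and leaving out each library, and for sums also unscaled totals, leaving out the gene with the most counts, and only genes past the filter.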

Additional observations from a re-analysis of the deposited data

Results flagged for a closer look

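In the 180 min libraries, Hist3h2a had 1 library apart from its group, with 11.58 CPM beside 10.1, 10.1 and 10.3 CPM. Its gap to the nearest library was 0.875 of the range of the group, above Dixon's 95% critical value for 4 samples. It was the 1 such case among 84 groups of 4 examined, and chance gives about 1 in 20.

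The difference between times was itself called by edgeR's quasi-likelihood test in 30 cases. The called share of the 51 was 17.6% at 90 min against 45 min, beside 28.1% of all genes tested. It was 19.6% at 180 min against 45 min, beside 36.4%, and 21.6% at 180 min against 90 min, beside 11.4%. The values that follow are log2 fold changes of the later over the earlier time. At 90 min against 45 min, 9 genes differed, with 1.65 for Hist1h1d, 1.47 for Hist1h2bk, 1.44 for Hist1h2ad, 1.18 for Hist2h2be, 1.14 for Hist2h3c2 and 0.956 for Hist3h2a, and smaller values for Hist1h3d (0.688), Hist1h4i (0.66) and Hist1h2bg (0.531). At 180 min against 45 min, Hist1h2ad (1.14), Hist1h1d (0.834), Hist2h2be (0.533) and Hist1h1c (0.157) were higher. In the same comparison Hist1h3e (−0.932), Hist2h3b (−0.862), Hist1h1e (−0.578), Hist1h4c (−0.573), Hist1h4d (−0.527) and Hist2h4 (−0.469) were lower. At 180 min against 90 min, Hist1h1c alone was higher (0.246). The 10 that were lower were Hist2h3c2 (−1.18), Hist1h1d (−0.813), Hist1h3e (−0.798), Hist3h2a (−0.667), Hist2h2be (−0.645), Hist1h2bg (−0.594), Hist1h1e (−0.538), Hist1h2be (−0.526), Hist2h4 (−0.47) and Hist1h4d (−0.458).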

How the results depend on the processing

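The count of histone genes called at 45 min against alone, 1, was 0 with libraries thinned to the smallest and 0 to 1 with each library left out (0 without any one library of the macrophages alone or library 2 of 45 min). The counts of the other comparisons stayed within 1.5 times under each alternative run: 7 to 11 at 90 min and 8 to 11 at 180 min against alone, 7 to 10 at 90 min against 45 min, 8 to 11 at 180 min against 45 min and 8 to 12 at 180 min against 90 min. Leaving out library 4 of 90 min left 1 gene lower at 90 min against alone in place of 3 (1 to 3 over the libraries left out). At 90 min against 45 min, 1 gene was lower in place of 0 with thinning or without library 1 of 45 min or library 2 or 4 of 90 min (0 to 1). Leaving out library 3 of 45 min or library 2 of 180 min left 2 higher at 180 min against 45 min in place of 4 (2 to 4). Over all genes, removal of the length and GC trend gave 967 calls at 45 min against alone, beside 1528. No call of a named gene changed sign. Thinning also ended the calls of Hist1h2bg at 90 min against alone (0.44, adjusted p = 0.0661), Hist2h3b at 180 min against 45 min (−0.67, adjusted p = 0.0587), Hist1h2bk at 90 min against 45 min (1.42, adjusted p = 0.0578) and Hist1h2be at 180 min against 90 min (−0.48, adjusted p = 0.0749), the last also with only the 2 groups compared (−0.52, adjusted p = 0.0640). Hist1h1c at 180 min against 45 min was not called by DESeq2 (0.16, adjusted p = 0.0509) or without the filter (0.14, adjusted p = 0.0697). Hist4h4 at 180 min against alone, not called (−0.73), was called by DESeq2 (adjusted p = 0.0476). The median log2 fold change of the tested genes was judged against the SD of its values with each library left out. With the length and GC trend removed it was −0.15 at 45 min, 0.039 at 90 min and −0.19 at 180 min against alone and 0.15 at 90 min against 45 min. Without the filter it was −0.063 at 180 min against alone and 0.28 at 90 min against 45 min. At 180 min against 45 min (−0.063) it was −0.020 with upper quartile scaling and −0.035 with coding genes only. With each library left out it ranged from −0.13 to −0.022, 0.042 to 0.16 and −0.20 to −0.029 at 45, 90 and 180 min against alone, 0.12 to 0.28 at 90 min against 45 min, −0.10 to −0.014 at 180 min against 45 min and −0.40 to −0.27 at 180 min against 90 min. Sums without their most counted gene are lower by construction. In the order alone, 45, 90 and 180 min they were 234, 219, 259 and 201 CPM for all 60, 27.4, 26.6, 33.2 and 22.9 CPM for H1, 19.0, 18.5, 23.6 and 20.3 CPM for H2A, 36.3, 31.7, 45.6 and 33.2 CPM for H2B, 18.4, 17.1, 21.3 and 16.4 CPM for H3, and 60.6, 53.9, 57.6 and 45.5 CPM for H4. Thinning gave H2A 28.3 CPM alone and 28.2 CPM at 45 min, and the genes past the filter alone gave 26.3 CPM at 45 min. No paired analysis was possible because the table's columns carry no replicate numbers. The sample titles do number the libraries, but the columns name the group alone and were not matched to the titles by their order. Beyond those named, the cause of such shifts was not tested.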
